A study of Mus musculus with 6 samples.

Results

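The miR-26 and miR-181 families were examined in small extracellular vesicles (sEVs) released by cultured mouse islets. The members were the 5p arms, which are the mature strands cut from the 5′ side of each hairpin, of miR-26a, miR-26b, miR-181a, miR-181b, miR-181c and miR-181d. They were chosen by name, with earlier results of these data known, and all 6 were present among the 718 entries of the deposited table. The islets came from C57/B6J mice of WT genotype that were fed a normal chow diet (NCD) or a high-fat diet (HFD). The sEVs of NCD islets are called normal islet–derived sEVs (nid-sEVs) and those of HFD islets adaptive islet–derived sEVs (aid-sEVs), with 3 small RNA libraries each. The study states 9 weeks of HFD as its general choice for the adaptive phase, 48 hours of culture before the medium was taken, and 5 ng of sEV RNA per library. Whether islets of several mice were pooled for a library, and the sex of these mice, were not stated. The vesicles were collected from whole islets, so signal of the non-endocrine cells of an islet was included, and fewer vesicles from a cell type and less RNA per vesicle cannot be told apart.

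A microRNA (miRNA) guides the Argonaute protein to matching sites in mRNAs, and its bases 2 to 8, called the seed, set most of this match. Members of a family share the seed and can therefore act on overlapping sets of mRNAs. The miR-26 family is made from hairpins within genes that encode small C-terminal domain phosphatases. It is known as a brake on growth, with the mRNA of Ezh2, a histone methyltransferase, among its targets. The miR-181 family is best known from developing lymphocytes, where miR-181a sets the sensitivity of the T cell receptor, and it is also present in many other cells.

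The mature sequences, taken from RefSeq (GRCm38.p6), are shown because they set both the grouping into families and how well reads of neighbouring members can be told apart. Capitals mark the seed.
mmu-miR-26a-5p: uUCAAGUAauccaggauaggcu
mmu-miR-26b-5p: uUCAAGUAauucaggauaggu
mmu-miR-181a-5p: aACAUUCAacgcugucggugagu
mmu-miR-181b-5p: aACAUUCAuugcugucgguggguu
mmu-miR-181c-5p: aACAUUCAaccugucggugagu
mmu-miR-181d-5p: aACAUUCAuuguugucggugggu
No other mature miRNA of the RefSeq table had either seed. Counted from 1 at the 5′ end, miR-26b-5p differed from miR-26a-5p by C11U and C21U and was 1 base shorter. The change from miR-181a-5p to miR-181b-5p was A9U, C10U and A21G, and miR-181d-5p differed from miR-181b-5p by C12U alone over the 23 bases compared. The sequence of miR-181c-5p was that of miR-181a-5p without base 11. A single misread base can therefore exchange reads of miR-181b-5p and miR-181d-5p, and how the reads were divided between members is not given in the sources used here. Short motifs that have been described in miRNAs sorted into vesicles, GGAG and CCCU, were searched on the miRNA strand. Neither was present in any of the 6 sequences, against 9.91% and 7.31% of the 424 listed miRNAs with a RefSeq sequence. With shares this low, an absence from so few and so similar sequences does not set the members apart, and it was not tested.

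The mature miR-26a-5p, miR-181a-5p and miR-181b-5p are each made from 2 hairpins, and the other 3 members from 1 hairpin. In GRCm38, with host genes from the GENCODE annotation of that build, Mir26a-1 lies on chromosome 9 from 119031796 to 119031885, in an intron of Ctdspl. The second miR-26a hairpin, Mir26a-2, is on chromosome 10 from 126995530 to 126995613 inside Ctdsp2, where it overlaps an exon of an annotated transcript. Mir26b lies on chromosome 1 from 74394310 to 74394394, in an intron of Ctdsp1. All 3 are on the strand of their host gene. On chromosome 1, Mir181a-1 (137966455 to 137966541) and Mir181b-1 (137966639 to 137966718) are 97 bases apart in an intron of the noncoding gene Gm4258, and both overlap the lincRNA A430106G13Rik. The other pair, Mir181a-2 (38852735 to 38852810) and Mir181b-2 (38853830 to 38853918) on chromosome 2, lies in an intron of Nr6a1 on the opposite strand. The mature arms of Mir181c (84178885 to 84178945) and the hairpin of Mir181d (84178716 to 84178787) are neighbours on the minus strand of chromosome 8, in an intron of Nanos3. The 5p reads of miR-26a, miR-181a and miR-181b therefore cannot be assigned to one locus.

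The level of each entry was given as RPM, the reads of an entry scaled to a fixed library total, and the reads could be recovered because each value was a whole multiple of 1 read. The nid-sEV libraries held 50534 to 129152 reads and the aid-sEV libraries 122266 to 519315 reads. With 3 reads taken as the smallest level that can be shown, the floor was 23.2 to 59.4 RPM in nid-sEVs and 5.78 to 24.5 RPM in aid-sEVs, for counting error only. Of the nid-sEV libraries, 2 stood apart. In replicate 1, 33.4% of the reads belonged to entries that carry no miRBase name, against 6.61% to 9.45% elsewhere. Replicate 3, the shallowest, had 357997 RPM of the islet endocrine markers miR-375-3p, miR-7a-5p and miR-7b-5p, against 73913 to 184327 RPM in the other libraries. Their part in the results was not tested, and values without these libraries are given for some of the fits, ratios and family sums. Of the markers fixed for other cells, the 5 leukocyte miRNAs are the closest to the known biology of miR-181. Their sum was 152 to 435 RPM in nid-sEVs and 24.5 to 38.5 RPM in aid-sEVs, and for 1 of the 5 the groups did not overlap, with aid-sEVs lower, as for 7.52% of all entries and 20.1% of those detected in every library. These aid-sEV sums lay within the range of the nid-sEV floors, and that of aid-sEV replicate 3, 24.5 RPM, was at its own floor. The mesenchymal list (6 of 6 listed) summed to 5422 to 24684 RPM in nid-sEVs and 4494 to 11636 RPM in aid-sEVs, and the acinar list (3 of 3) to 2533 to 8997 and 698 to 3370 RPM. The endothelial list (2 of 2) had 989 to 3717 and 679 to 1325 RPM, the red cell list (3 of 3) 4215 to 8858 and 372 to 1510 RPM, and the liver marker miR-122-5p 396 to 3000 and 24.5 to 42.6 RPM. Aid-sEVs were also lower without overlap for 2 of the 6 mesenchymal markers, 2 of the 3 red cell markers and miR-122-5p. This held for 0 endothelial and 0 acinar markers. Of the 3 islet endocrine markers, 1 was higher in aid-sEVs without overlap, as for 24.2% of all entries. No marker was at 0 reads in every library of a group.

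The dominant member of both families was miR-26a-5p. It had 26117, 23328 and 11299 RPM in nid-sEV replicates 1, 2 and 3 and 45988, 41082 and 42890 RPM in aid-sEV replicates 1, 2 and 3. The groups did not overlap, aid-sEVs being higher, and nid-sEV replicate 3 was the lowest of the 6. This placed miR-26a-5p 5th among the miRBase-named entries of each aid-sEV library, and 5th, 9th and 15th in the nid-sEV libraries. Its mean was 20248 ± 7874 RPM in nid-sEVs against 43320 ± 2481 RPM in aid-sEVs (SD, n = 3), a ratio of 2.14. The closest libraries, with 95% Wilson intervals of 25261 to 27000 RPM in nid-sEV replicate 1 and 40432 to 41743 RPM in aid-sEV replicate 2, differed beyond counting error, which leaves out the spread between samples. On the scale of the miRBase-named entries alone, these libraries had 39284 and 44009 RPM. In the pair with similar depth, nid-sEV replicate 1 and aid-sEV replicate 3, the levels were 26117 and 42890 RPM from 3373 and 5244 reads. Groups without overlap and higher in aid-sEVs were seen for 24.2% of all entries and for 20.5% of the entries detected in every library, so such a separation is common in this table.

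In the limma fit over all entries, the log2 fold change of miR-26a-5p on the log2(RPM + 1) scale was 1.19 (SE 0.37, 95% interval 0.30 to 2.07), with an unadjusted p of 0.017 and a Benjamini-Hochberg adjusted p of 0.082. The difference was thus large against its SE for this entry taken alone. Corrected over all entries, it did not pass the adjusted threshold of 0.05. It lay close to the median of all entries, 1.11, and above the median of the 219 entries detected in every library, -0.21. The median of all entries depended on the added 1, being 1.78 with 0.1 and 0.39 with 10. The log2 fold change of miR-26a-5p stayed at 1.19 with either, so its closeness to that median held for the added 1 only. The call depended on the scaling. With RPM divided by TMM factors (scaling factors that assume most miRNAs are alike) the log2 fold change was 1.68 with an adjusted p of 0.020 by limma, while the median of all entries moved to 1.43. After centring on the entries detected in every library the values were 1.36 and 0.035, and by DESeq2 on the recovered reads 1.19 and 0.040. Without nid-sEV replicate 1 they were 1.41 and 0.044 by limma. Without nid-sEV replicate 3 the log2 fold change was 0.81, with an adjusted p of 0.082. With RPM recomputed over the miRBase-named entries, the groups still did not overlap, and the log2 fold change was 1.01 (adjusted p = 0.17 by limma). Over the 17 alternatives the adjusted p ranged from 0.020 to 0.22, the member was called in 4, and its log2 fold change was above 0 in each.

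**Figure D1:**
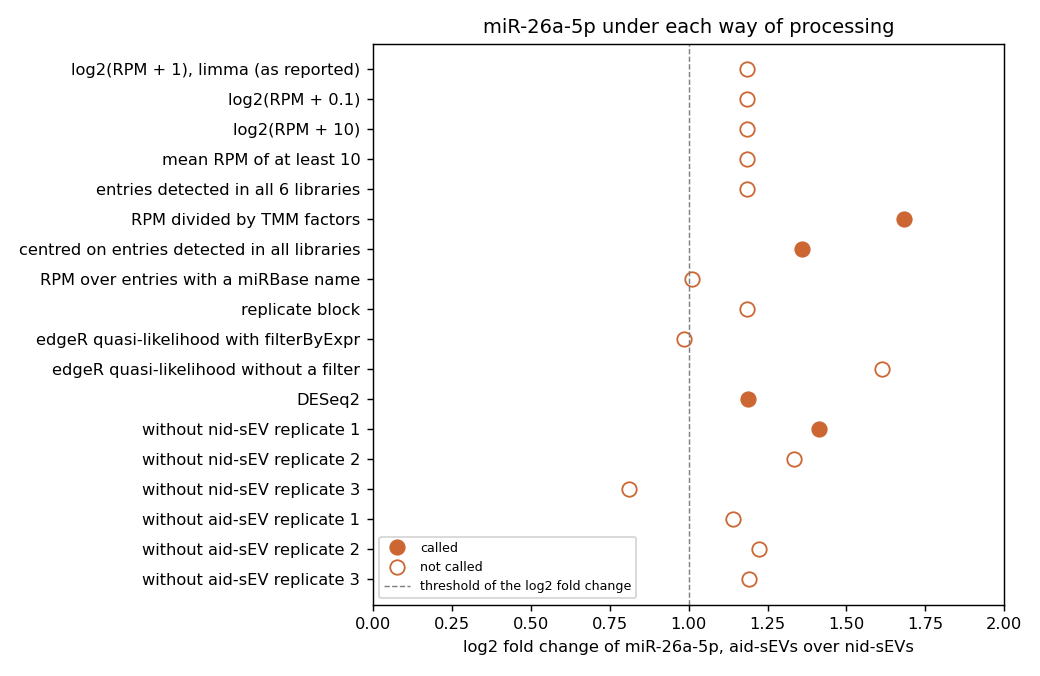
Log2 fold change of miR-26a-5p (x axis) under the reported fit and the 17 alternatives (y axis); filled points passed both thresholds (0.05 for the adjusted p, 1 for the fold change), open points did not. Values ran from 0.81 without nid-sEV replicate 3 to 1.68 with TMM factors, and 4 alternatives gave a call.

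Its close relative miR-26b-5p was far less abundant. The levels were 364, 350 and 79.2 RPM in nid-sEV replicates 1, 2 and 3, from 47, 23 and 4 reads, and 320, 315 and 360 RPM in the aid-sEV replicates, from 166, 111 and 44 reads. Of the nid-sEV libraries, replicate 3 was the lowest of the 6, replicate 1 the highest, and replicate 2 lay within the aid-sEV range. The log2 fold change of 0.61 (SE 0.73, 95% interval -1.15 to 2.37, adjusted p = 0.62 by limma) did not pass the test, and without nid-sEV replicate 3 it was -0.11.

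Within its family, miR-181a-5p was the main member. It had 2942, 3167 and 1662 RPM in nid-sEV replicates 1, 2 and 3 and 3601, 3185 and 2838 RPM in aid-sEV replicates 1, 2 and 3. The groups overlapped, and nid-sEV replicate 3 was again the lowest library. The means were 2591 ± 812 RPM in nid-sEVs and 3208 ± 382 RPM in aid-sEVs (SD, n = 3). Its log2 fold change by limma was 0.36 (SE 0.38, 95% interval -0.57 to 1.29, adjusted p = 0.58), and without nid-sEV replicate 3 it was 0.065.

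The levels of miR-181b-5p, which is made next to miR-181a at both loci, spread widely in nid-sEVs. They were 449, 898 and 39.6 RPM in nid-sEV replicates 1, 2 and 3, the last from 2 reads, and 824, 630 and 597 RPM in the aid-sEV replicates. The nid-sEV libraries thus lay on both sides of the aid-sEV range. The log2 fold change of 1.42 (SE 1.16, 95% interval -1.40 to 4.23, adjusted p = 0.45 by limma) depended on single libraries, being 0.091 without nid-sEV replicate 3 and 2.33 without nid-sEV replicate 2. On the recovered reads it was 0.64 by edgeR with its filter and 0.81 by DESeq2, and no alternative gave a call.

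The chromosome 8 pair, miR-181c-5p and miR-181d-5p, was at the edge of what the depth could show. Counts of miR-181d-5p were 20, 8 and 0 reads in nid-sEV replicates 1, 2 and 3, against 22, 5 and 3 reads in the aid-sEV replicates. These are 155, 122 and 0 RPM and 42.4, 14.2 and 24.5 RPM. For miR-181c-5p the reads were 11, 4 and 0 and 7, 2 and 3, which are 85.2, 60.9 and 0 RPM in nid-sEVs and 13.5, 5.68 and 24.5 RPM in aid-sEVs. Both were higher in nid-sEV replicates 1 and 2 than in any aid-sEV library, while nid-sEV replicate 3 had no read of either. A count of 0 in that library allows a level of up to 59.4 RPM, which is above all 3 aid-sEV values of both miRNAs, so it cannot be placed above or below them. By limma the log2 fold changes were -0.37 for miR-181c-5p (SE 1.87, adjusted p = 0.91) and -0.062 for miR-181d-5p (SE 2.05, adjusted p = 0.99). On the recovered reads they were lower, at -1.82 and -1.69 by DESeq2 and -1.36 and -1.22 by edgeR without its filter, and with an added 10 they were -0.80 and -0.77, without a call in any. Without nid-sEV replicate 3 both were -2.43, with adjusted p-values of 0.13 and 0.085. Without nid-sEV replicate 1 they were 0.78 and 1.21, and without nid-sEV replicate 2 they were 0.54 and 1.04. With TMM factors over all libraries they were 0.10 and 0.43, so no direction held under each scaling.

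**Figure D2:**
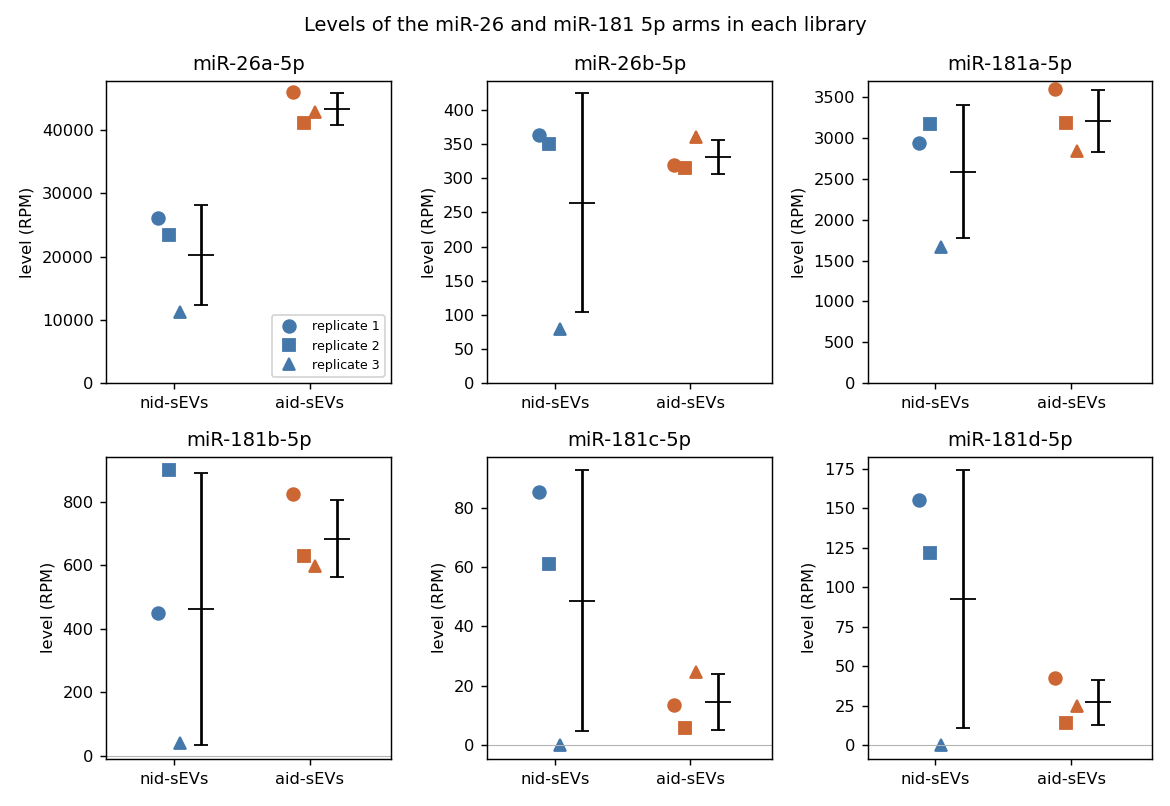
Level in RPM (y axis, a separate linear scale in each panel) of the 6 members in the 3 nid-sEV (blue) and 3 aid-sEV (orange) libraries, marker shape giving the replicate number, with the mean and SD in black. For miR-26a-5p the aid-sEV points sit between 41082 and 45988 RPM, above all nid-sEV points, whereas the groups overlap for miR-26b-5p, miR-181a-5p and miR-181b-5p, with nid-sEV replicate 3 the lowest point. In the miR-181c-5p and miR-181d-5p panels that library is drawn at 0 reads, which allows up to 59.4 RPM.

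By the sum of its members, the miR-26 family took 2.65%, 2.37% and 1.14% of the reads of nid-sEV replicates 1, 2 and 3 and 4.63%, 4.14% and 4.32% of those of the aid-sEV replicates. The miR-181 family took 0.363%, 0.425% and 0.170% and 0.448%, 0.384% and 0.348%. The sum of the miR-26 members was separated between the groups, and that of the miR-181 members was not. The means were 20513 ± 8033 and 43652 ± 2479 RPM for miR-26 and 3194 ± 1328 and 3934 ± 506 RPM for miR-181 (SD, n = 3). On the log2 scale the ratio of the means was 1.09 for miR-26 and 0.30 for miR-181, and without nid-sEV replicate 3 it was 0.80 and -0.0023. As scores over the members, these sums were not tested.

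The make-up of both families varied little between the aid-sEV libraries. The share of miR-26a-5p in the miR-26 reads was 98.5% to 99.3% in nid-sEVs and 99.2% to 99.3% in aid-sEVs. In nid-sEV replicates 1 and 2, miR-26b-5p made up 1.37% and 1.48% of the family, and in the other 4 libraries 0.690% to 0.832%, where the 95% Wilson interval of nid-sEV replicate 3 was as wide as 0.271% to 1.78%. The share of miR-181a-5p in the miR-181 reads was 80.4% to 83.0% in the aid-sEV libraries, and 81.0%, 74.6% and 97.7% in nid-sEV replicates 1, 2 and 3. The share of miR-181b-5p was 16.4% to 18.4% in aid-sEVs and 12.4%, 21.1% and 2.33% in nid-sEVs. Together, miR-181c-5p and miR-181d-5p made up 6.61% (95% Wilson interval 4.70% to 9.23%, 31 of 469 reads) and 4.30% (2.48% to 7.37%, 12 of 279 reads) of the family in nid-sEV replicates 1 and 2. In the aid-sEV libraries they made up 1.25%, 0.518% and 1.41%, with intervals reaching up to 3.04%. Nid-sEV replicate 3 had 0 of 86 reads, which allows a share of up to 3.49% at 3 reads and of up to 4.28% by the 95% Wilson interval. The intervals cover counting error only, as copies made in PCR are not independent molecules.

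**Figure D3:**
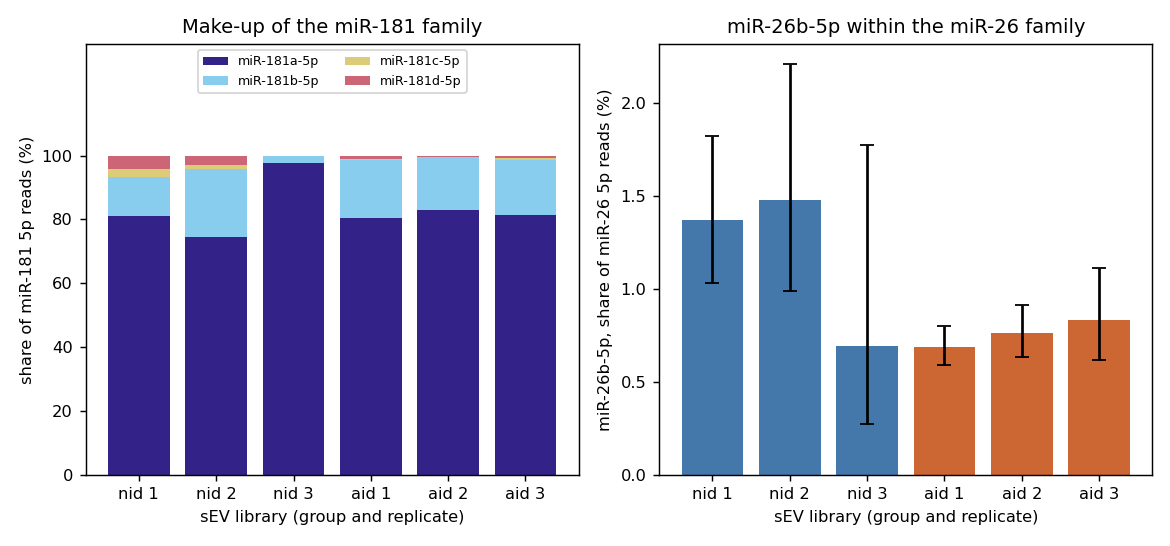
Left, share of the 4 members in the miR-181 5p reads of each library (stacked bars, in %, library on the x axis). Right, share of miR-26b-5p in the miR-26 5p reads with 95% Wilson intervals, nid-sEVs blue and aid-sEVs orange. The miR-181 bars are alike in the 3 aid-sEV libraries, with miR-181a-5p at 80.4% to 83.0%, and nid-sEV replicate 3 holds nearly no miR-181b-5p, at 2.33%.

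Ratios between members within a library hardly depend on how the library was scaled, and 4 were compared. The ratio of miR-26a-5p to miR-181a-5p was 8.88, 7.37 and 6.80 in nid-sEV replicates 1, 2 and 3 and 12.8, 12.9 and 15.1 in the aid-sEV replicates. These groups did not overlap. The mean log2 ratio was 2.93 ± 0.20 in nid-sEVs and 3.76 ± 0.14 in aid-sEVs (SD, n = 3), a difference of 0.83 (p = 0.10 in a two-sided exact permutation test, which cannot go lower with 3 libraries a group, and adjusted p = 0.40 over the 4 ratios). Leaving out any library gave differences of 0.75 to 0.94. The sums of the families gave the same picture, with 7.29, 5.57 and 6.69 reads of miR-26 for each read of miR-181 in nid-sEVs and 10.3, 10.8 and 12.4 in aid-sEVs. This test cannot reach 0.05 with 3 libraries a group, before or after the correction, so its p says no more than that the groups did not overlap.

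The other 3 ratios overlapped between the groups. The ratio of miR-26a-5p to miR-26b-5p was 71.8, 66.6 and 143 in nid-sEVs and 144, 130 and 119 in aid-sEVs, with a log2 difference of 0.57 (exact permutation test, p = 0.30, adjusted p = 0.60). With each library left out this difference ran from 0.38 to 0.92, the highest being without nid-sEV replicate 3. The ratio of 143 in that library rests on 4 reads of miR-26b-5p. For miR-181a-5p over miR-181b-5p the ratios were 6.55, 3.53 and 42.0 in nid-sEVs and 4.37, 5.05 and 4.75 in aid-sEVs. The log2 difference of -1.06 (exact permutation test, p = 0.50, adjusted p = 0.60) was -0.027 without nid-sEV replicate 3. For miR-181c-5p over miR-181d-5p the ratios were 0.55 and 0.50 in nid-sEV replicates 1 and 2 and 0.32, 0.40 and 1 in aid-sEVs. With the added 1 its log2 difference was -0.31 (exact permutation test, p = 0.60, adjusted p = 0.60), and nid-sEV replicate 3, without reads of either, enters there at 0.

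**Figure D4:**
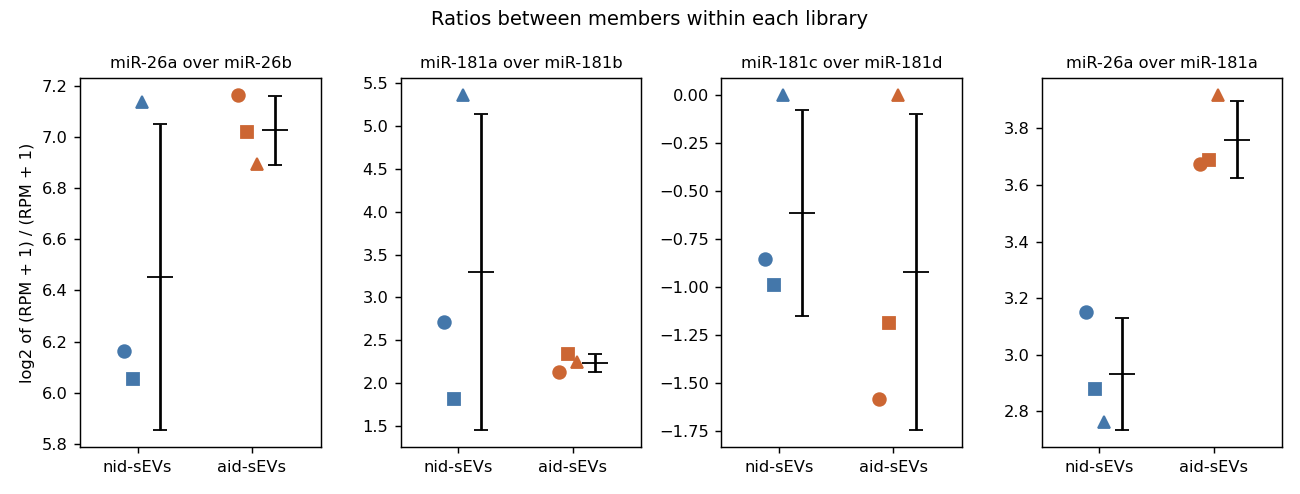
Log2 ratio of RPM + 1 between 2 members within each library (y axis, a separate scale in each panel), nid-sEVs blue and aid-sEVs orange, marker shape giving the replicate number (circle 1, square 2, triangle 3), with mean and SD in black. The groups are separate for miR-26a over miR-181a, at means of 2.93 and 3.76, and overlap in the other 3 panels; the nid-sEV point at 0 for miR-181c over miR-181d stands for the library without reads of either.

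A call required both an adjusted p below 0.05 and a log2 fold change beyond 1 in either direction. By limma, 15.6% of the 718 entries were called higher in aid-sEVs and 1.81% lower, and 0 of the 6 members were called. At an unadjusted p under 0.05, 1 member (miR-26a-5p) was higher, against 22.0% of all entries, and 0 were lower, against 5.85%. With TMM factors 1 member, miR-26a-5p, was called higher, against 17.3% of all entries, and 0 lower, against 0.418%. Centring gave the same single member, with 15.9% of entries called higher and 1.39% lower, and RPM over the miRBase-named entries gave 0 members, with 19.2% of these entries called higher and 2.51% lower. The edgeR quasi-likelihood test called 0 members with its filter on low counts, which left the chromosome 8 pair out (19.6% of the entries tested were higher and 8.57% lower), and 0 without the filter (7.8% higher and 0.975% lower). DESeq2 called miR-26a-5p alone, against 14.9% of the entries it adjusted called higher and 11.5% lower. Over the 6 members the log2 fold changes had a median of 0.48, between the medians of all entries and of those detected in every library. The 2 miR-26 members were both above 0, at 1.19 and 0.61, and of the 4 miR-181 members 2 were above 0 and 2 below. The 95% intervals of the members other than miR-26a-5p all included 0 and were wide, from -0.57 to 1.29 for miR-181a-5p to -5.02 to 4.90 for miR-181d-5p.

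**Figure D5:**
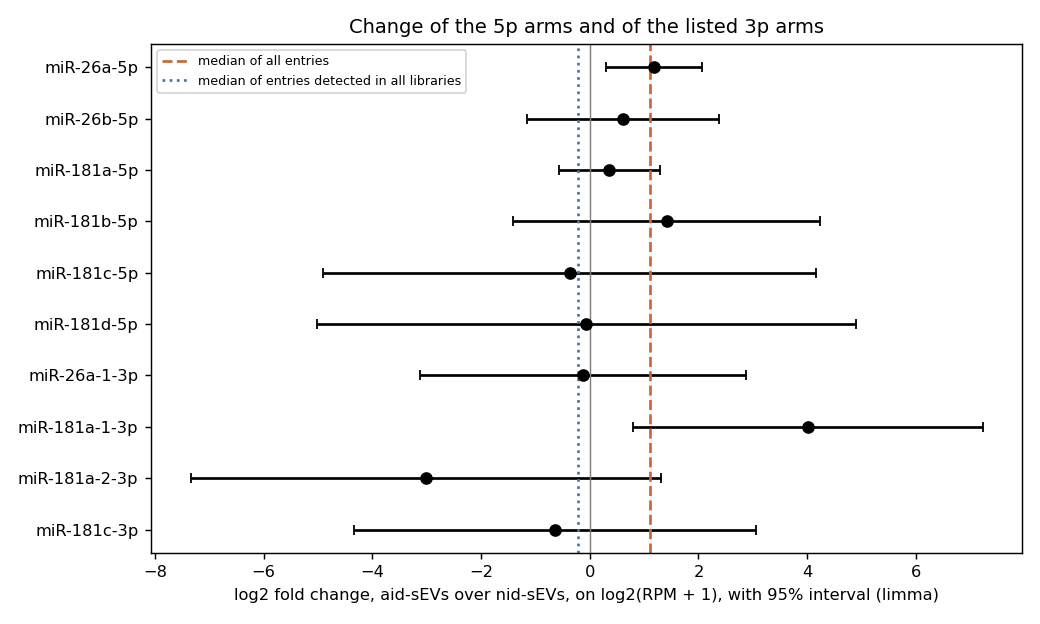
Log2 fold change of aid-sEVs over nid-sEVs on log2(RPM + 1) with its 95% interval from limma (x axis) for the 6 members and the 4 listed 3p arms (y axis), n = 3 libraries a group. The dashed line is the median of all entries, 1.11, and the dotted line that of entries detected in every library, -0.21; among the 5p arms only the interval of miR-26a-5p, 0.30 to 2.07, leaves out 0.

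The 3p arms are the opposite strands of the same hairpins, which are usually degraded, and unlike the 5p arms they tell the 2 miR-181a loci apart. Of the 9 fixed for these hairpins, 4 were listed, all at low levels, and 0 were called by limma, against 15.6% of all entries called higher and 1.81% lower. At an unadjusted p under 0.05, 1 of the 4 (miR-181a-1-3p) was higher, against 22.0% of all entries. The arm of the chromosome 1 locus, miR-181a-1-3p, had 2, 0 and 0 reads in nid-sEVs (replicates 1, 2 and 3) and 22, 13 and 5 reads in aid-sEVs. These are 15.5, 0 and 0 RPM and 42.4, 36.9 and 40.9 RPM, without overlap, as for 24.2% of all entries. The log2 fold change by limma, 4.01 (SE 1.33, adjusted p = 0.099), depends on the added 1, being 6.22 with 0.1 and 1.87 with 10, and without nid-sEV replicate 1 it was 5.36 with an adjusted p of 0.0094, a comparison with libraries that had 0 reads alone. All 3 aid-sEV levels were under the floor of 45.7 and 59.4 RPM of nid-sEV replicates 2 and 3, so a difference from those libraries was not detectable at this depth, and that adjusted p does not show one.

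The arm of the chromosome 2 locus, miR-181a-2-3p, had 10, 1 and 1 reads in the nid-sEV libraries and 0, 0 and 6 reads in the aid-sEV libraries. The groups overlapped through aid-sEV replicate 3. By limma its log2 fold change was -3.02 with an SE of 1.78 (adjusted p = 0.29), and without aid-sEV replicate 3 it was -4.90 with an adjusted p of 0.044, again with a group left at 0 reads alone and with 1 read each in nid-sEV replicates 2 and 3. The remaining arms were rarer. For miR-181c-3p the reads were 5, 1 and 0 in nid-sEVs and 2, 1 and 1 in aid-sEVs, and for miR-26a-1-3p they were 1, 0 and 0 and 3, 0 and 0, with adjusted p-values of 0.82 and 0.96 by limma.

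The miRNAs with the pattern most like each abundant member were taken among the 152 other miRBase-named entries detected in every library with a mean of at least 100 RPM. Likeness was Pearson's r of log2(RPM + 1) over the 6 libraries, which share their depth and diet group. For miR-26a-5p the closest were miR-340-5p (r = 0.99), miR-186-5p (0.97) and miR-411-5p (0.97). These had 365 ± 215, 1534 ± 632 and 125 ± 60.3 RPM in nid-sEVs and 1143 ± 361, 5440 ± 630 and 679 ± 9.70 RPM in aid-sEVs (SD, n = 3). For miR-26b-5p they were miR-21a-5p (0.99), miR-93-5p (0.98) and miR-30c-5p (0.97). For miR-181a-5p they were miR-30c-5p (0.96), miR-93-5p (0.92) and miR-381-3p (0.92), and for miR-181b-5p they were miR-378a-3p (0.96), miR-30c-5p (0.95) and miR-21a-5p (0.94). The lists of miR-26b-5p, miR-181a-5p and miR-181b-5p thus shared miR-30c-5p, and that of miR-26a-5p held none of theirs. Between members, r was 0.82 for miR-26a-5p and miR-26b-5p, 0.97 for miR-181a-5p and miR-181b-5p, and 0.97 for miR-181c-5p and miR-181d-5p. Across the families, miR-26b-5p was closer to miR-181b-5p (0.96) than to miR-26a-5p. These correlations describe 6 points and carry no test. Nid-sEV replicate 3 had the lowest value of each member, with 4 reads of miR-26b-5p, 2 of miR-181b-5p and 0 of miR-181c-5p and miR-181d-5p. A high r can come from that library alone, and r was not computed without it.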

How the data were processed

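Small RNA libraries of sEVs from 3 NCD and 3 HFD islet samples were analysed. The authors deposited 1 table of RPM per library for 718 entries. The submitters' processing notes name fastp 0.23.0, HISAT2 2.2.1 and GRCm38, and the miRNA counter and its reference are not given in the sources used here. The table's columns of the authors' own comparison (log2 fold change, mean abundance, p-value, false discovery rate and direction) were not used. Whole reads were recovered by dividing by the smallest value above 0 (100% whole within 0.001 read). Samples were grouped by title. The study states biological replicates in general, but not how these libraries relate to animals or whether same-numbered ones are paired, so p-values measure the spread between these libraries.

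Groups were compared with limma 3.58.1 (eBayes with trend, R 4.3.3) on log2(RPM + 1) over all entries, with the group as the only term and no filter. A fold change on this scale understates or overstates that of low miRNAs. Ratios were tested with scipy 1.17.1. Alternatives were pseudocounts of 0.1 and 10, a mean RPM of at least 10, entries detected in every library, TMM factors, centring, miRBase-named entries, the replicate block, edgeR 4.0.16, DESeq2 1.42.0 and leaving out each library. The fit was also run on simulated data with equal numbers of entries raised and lowered, and no result here rests on that run. Named miRNAs were the members, the 3p arms of their hairpins, miRNAs sharing a seed, and the 3 miRNAs most like each of 4 members. The members and lists were chosen with earlier results of these data known.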

Additional observations from a re-analysis of the deposited data

How the results depend on the processing

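Of 157 log2 fold changes of the 6 members and 4 listed 3p arms under the alternatives, 132 kept their sign and stayed without a call, 19 changed sign and 6 gained a call, and the causes were not tested. The calls gained were those of miR-26a-5p under TMM factors, centring, DESeq2 and without nid-sEV replicate 1, of miR-181a-1-3p without nid-sEV replicate 1 and of miR-181a-2-3p without aid-sEV replicate 3. Each of the last pair compares with libraries at 0 reads alone. The call of miR-181a-1-3p cannot show whether this arm differed, as its aid-sEV levels were under the floor of those libraries. For miR-181a-2-3p, aid-sEV replicates 1 and 2 had floors of 5.78 and 8.52 RPM, under the 77.4 RPM of nid-sEV replicate 1. The other nid-sEV libraries held 1 read of it each, under the floor of 3 reads. The number of members called was accordingly 1 under TMM factors, 1 after centring, 1 by DESeq2 and 0 to 1 with each library left out. The sign changed for miR-181c-5p with a pseudocount of 0.1 (0.63) and TMM factors (0.10), for miR-181d-5p with 0.1 (0.99), TMM factors (0.43) and centring (0.11), for miR-26a-1-3p with TMM factors (0.0017) and centring (0.052), and for miR-181c-3p with 0.1 (0.23). With each library left out, log2 fold changes ran from -0.11 to 0.98 for miR-26b-5p, -2.43 to 0.78 for miR-181c-5p, -2.43 to 1.21 for miR-181d-5p, -1.04 to 0.92 for miR-26a-1-3p and -2.19 to 0.46 for miR-181c-3p. The log2 difference of the miR-181c/miR-181d ratio ran from -0.77 to 0.021. Alternatives for the family sums were chosen after the values were seen. With TMM factors the log2 ratio of the means was 1.61 for miR-26 and 0.86 for miR-181. With RPM over the miRBase-named entries both were lower than reported, at 0.855 for miR-26 and 0.089 for miR-181. With each library left out the log2 ratio ran from 0.80 to 1.32 for miR-26 and from -0.0023 to 0.56 for miR-181.

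Over all entries, 112 were called higher and 13 lower in aid-sEVs. The counts higher were 62 with a pseudocount of 10, 69 with a mean RPM of at least 10, 23 among entries detected in every library (fewer entries tested), 48 and 56 by edgeR with and without its filter, 65 by DESeq2 and 33 to 150 with each library left out. The counts lower were 8 with a pseudocount of 0.1, 3 with TMM factors, 21 and 7 by edgeR with and without its filter, 50 by DESeq2 and 1 to 26 with each library left out. With the replicate number as a block, limma called 0 entries higher and 0 lower, while 187 had an unadjusted p under 0.05, against 200 without the block. Same-numbered libraries correlated in their deviations from the group means by -0.11 to 0.13 over the 3 numbers, so they were taken to share only a number. Depth limited miR-181c-5p, miR-181d-5p and all 3p arms, which had at most 22 reads in any library.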

Other observations

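The reads of the miR-181a 3p arms were divided unevenly between the 2 loci, a pattern noticed in the values and not tested. Summed over the 3 nid-sEV libraries, 2 of 14 reads came from miR-181a-1-3p (chromosome 1) and 12 from miR-181a-2-3p (chromosome 2), and over the 3 aid-sEV libraries 40 of 46 reads came from miR-181a-1-3p and 6 from miR-181a-2-3p. Most nid-sEV reads were from replicate 1, with 2 and 10 reads, and aid-sEV replicate 3 held all 6 miR-181a-2-3p reads of its group beside 5 of the other arm. The 5p arm that both loci give, miR-181a-5p, overlapped between the groups.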
